A study of Mus musculus with 2 samples.

Results

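Stratifying epithelial cells of the mouth and pharynx were picked out of single-cell RNA profiles of mouse embryos at mid-gestation (E13.5). A cell was a member if it held at least 1 unique molecular identifier (UMI, the tag that marks one captured transcript) of Epcam or Cdh1, at least 1 UMI in 2 or more of Trp63, Krt5, Krt14, Krt15 and Sfn, no UMI of Nkx2-1 or Sftpc, and fewer than 2 of Cdh5, Pecam1, Ptprc and Col1a1. The members were thus selected on their measured UMIs of 13 genes. This rule found 277 members among 6272 cells that passed quality limits, out of 9862 deposited cells.

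The control library came from Isl1-Cre;R26R-eYFP embryos, in which Cre made under the Isl1 gene switches on the yellow fluorescent reporter in cells that express Isl1 or descend from such cells. The mutant library came from Isl1-Cre;R26R-eYFP;Pik3caH1047R embryos, in which the same Cre also switches on Pik3ca with the H1047R change, an activating form of the catalytic subunit of phosphoinositide 3-kinase. Both groups therefore carried the Cre and the reporter, and each was 1 library of 3 pooled embryos, made from tissue above the liver by sorting live reporter-positive cells. Because there was 1 library per genotype, no test between genotypes could be made, and differences between embryos, dissections, sorts and libraries cannot be told apart from the genotype. The intervals given below are 95% intervals that cover counting error only.

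A stratified epithelium is built from a basal layer that adheres to the basement membrane and from layers above it that tighten their junctions and change their keratins. The basal layer is marked by the transcription factor p63, made from Trp63, and by the keratin pair of Krt5 and Krt14, while in the embryo a flat outer sheet called the periderm covers it and is shed later. In the mouth and pharynx, ectoderm and endoderm meet, and the lining that forms there gives rise to teeth, glands and pharyngeal pouch derivatives.

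The control library held 80 members of 2783 kept cells, a share of 2.87% (Clopper-Pearson interval 2.29 to 3.57). In the mutant library 197 of 3489 kept cells were members, a share of 5.65% (4.90 to 6.46). Each share depends on one dissection and one sort, so the difference was not tested. Control members held 1507666 UMIs in all, with a median of 14322.5 per cell and a range from 4253 to 78348. Mutant members held 3810341 UMIs, with a median of 16853 and a range from 3662 to 68903. The median number of genes detected was 4460.5 in control members and 5003 in mutant members, and the median mitochondrial share was 2.38% and 1.53%.

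Female and male cells were told apart by Xist, the X-inactivation RNA, and by the Y-linked genes Ddx3y, Uty, Kdm5d and Eif2s3y. Of the control members 76 were female-like, 0 were male-like and 4 were unassigned. Of the mutant members 77 were female-like, 100 were male-like and 20 were unassigned. The male-like and female-like mutant members must come from different embryos of the pool, so values are also given for female-like members alone. The libraries shared 28 cell barcodes, of which 0 belonged to control members and 1 to a mutant member. Pik3ca gave 71 UMIs in control members, 47.1 per 1000000 UMIs of the members, and 165 UMIs or 43.3 per 1000000 in mutant members. This scale, counts per 1000000 UMIs summed over the cells of one library, is written CPM below. The log2 ratio of mutant over control for Pik3ca was −0.12 (−0.53 to 0.30). The feature list holds a single Pik3ca entry and none for the reporter, and whether reads of the introduced allele were counted in it was not tested.

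The genes that chose the members are given as a description. Krt5 stood at 1147 CPM in control members and 1300 CPM in mutant members. Krt14, its usual partner in basal cells, stood at 830 and 405 CPM. Krt15, a keratin of resting basal cells, stood at 632 and 603 CPM. Sfn, the 14-3-3 sigma protein of differentiating keratinocytes, stood at 336 and 759 CPM, and Trp63 at 349 and 229 CPM. Epcam stood at 415 and 457 CPM and Cdh1, E-cadherin, at 107 and 201 CPM. Krt5 and the simple keratin Krt8 lie on chromosome 15 (GRCm38, chr15:101707070-101712898 and chr15:101996698-102004482, both on the minus strand), and Krt14, Krt15, Krt17 and Krt19 lie together on chromosome 11 between 100131758 and 100261029.

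Among control members 12 cells held exactly 2 of the 5 markers, 20 held 3, 20 held 4 and 28 held all 5. Among mutant members the numbers were 39, 55, 62 and 41. Just outside the rule were 39 control and 43 mutant cells with exactly 1 marker. Their summed level of the 5 markers was 82.4 CPM in the control library and 129 CPM in the mutant library, against 559 and 1156 CPM in the members with exactly 2.

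Shares of cells with a UMI depend on depth and on free RNA in the droplets. The shares were therefore taken after thinning every cell to 5000 UMIs and set beside endothelial cells of the same library, which should lack these genes. The endothelial cells, 152 control and 667 mutant, were kept cells with both Cdh5 and Pecam1 and no UMI of Epcam or Cdh1. That last condition can leave out cells with free epithelial RNA, so their shares may understate the background. The thinning left out 4 control and 10 mutant members. Trp63 was then found in 68.4% of control members and 59.9% of mutant members (87.5% and 78.7% before thinning). In endothelial cells with median depths of 20288 and 17608 UMIs, the thinned share for Trp63 was 0.667% in the control library and 0.62% in the mutant library. Krt5 was found in 68.4% and 63.1% of thinned members (75% and 71.6% before thinning) and in 2.67% and 0.775% of thinned endothelial cells. Since the rule asked for UMIs of these genes, their distance from endothelial cells follows from the selection. The plot of levels in members, other epithelium and endothelial cells shows it beside genes that the rule did not use.

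**Figure D1:**
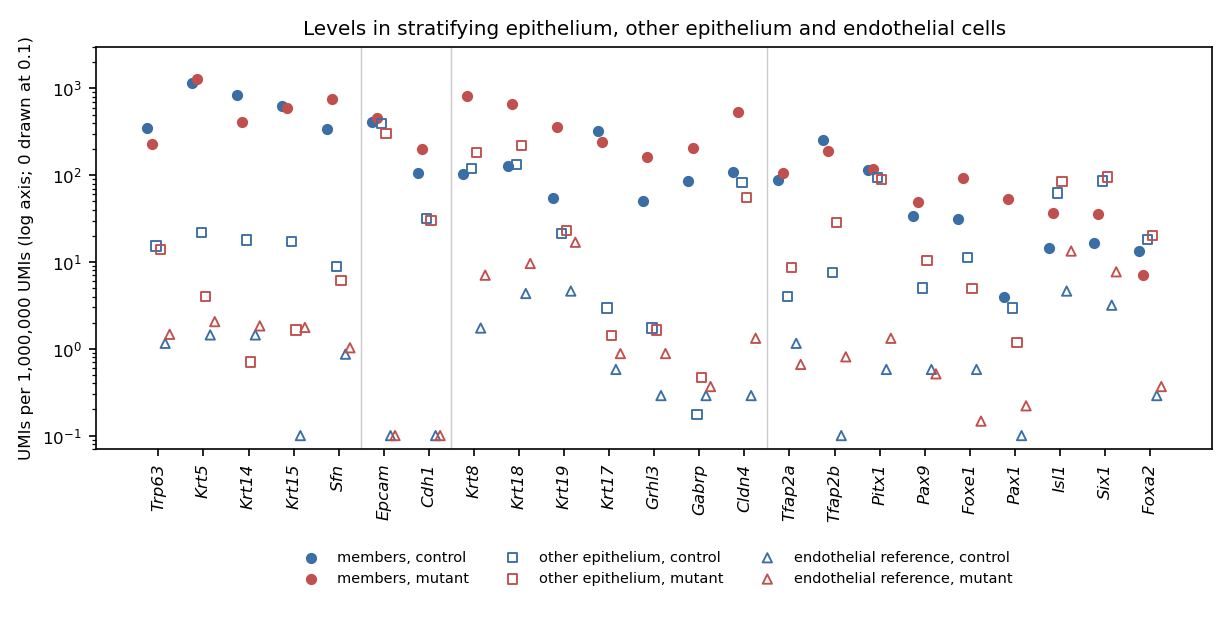
Level of 23 genes in UMIs per 1000000 UMIs (log axis) in stratifying epithelial cells (filled circles), other epithelium (open squares) and endothelial cells (open triangles) of the control (blue) and mutant (red) library. The first 5 genes are the markers and the next 2 the epithelial genes of the rule, and Krt8, Krt18, Krt19 and Cldn4 are among the genes where mutant members stand apart from control members. Levels were not divided by gene length, so they compare cells and not genes.

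Markers of other cell types were also counted in the members, with 10 genes for each type. Mesenchyme markers summed to 1163 CPM in control members and 131 CPM in mutant members, with Col3a1 the most abundant in the control library (296 CPM) and Dcn in the mutant library (37.0 CPM). Of the control UMIs of these markers 77.4% came from 4 cells, although 63 of the 80 control members held at least 1 such UMI. Muscle markers summed to 535 and 368 CPM and were led by Actc1, with 81.8% and 77.1% of the UMIs in 4 cells. Cardiomyocyte markers summed to 73.6 and 244 CPM, with 64.9% and 78.2% of the UMIs in 4 cells, neuron markers to 122 and 99.5 CPM, and neural crest and Schwann cell markers to 151 and 61.1 CPM. Endothelial markers summed to 27.9 and 45.1 CPM with Cdh5 and Tie1 at 0 in control members, immune markers to 14.6 and 50.7 CPM with Ptprc at 0 in control members, erythroid markers to 16.6 and 38.6 CPM, and liver markers to 3.98 and 49.1 CPM with Hnf4a at 0 in both libraries. In mutant members these were 172 endothelial, 193 immune, 147 erythroid and 187 liver UMIs. Lung and thyroid markers summed to 401 and 426 CPM, led by Id2, with Nkx2-1, Sftpc and Sftpb at 0, the first and second of these by the rule. Mesothelial markers summed to 90.2 and 476 CPM, of which 55.1 and 359 CPM were Krt19, a gene that stratifying cells also use. At least 5 mesenchyme UMIs were held by 30 control members and 23 mutant members, and the other 50 and 174 are called mesenchyme-poor members below. The counts of each gene list are repeated for these where they differ. They hold 739490 of the 1507666 control UMIs and 3212576 of the 3810341 mutant UMIs. A gene can therefore leave the count with a ratio of the same size because its interval is wider. The cut is a number of UMIs and not a share of the cell, so deep cells are left out more readily and depth can enter these values. Over all genes of these cells 248 of 11480 were higher (2.16%) and 312 were lower (2.72%) in the mutant library. In them the log2 ratio of mutant over control was 0.73 instead of 1.17 for Sfn and −0.27 instead of −1.03 for Krt14.

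Genes that varied together with Sfn or with Trp63 across the members are described for each library. Both are genes of the rule, and 51 of 80 control and 125 of 197 mutant members held UMIs of both. Over 7554 genes with at least 30 UMIs in control members and 60 in mutant members, the genes whose level per cell followed Sfn most closely in both libraries included Spint1, an inhibitor of membrane proteases (Spearman rho 0.51 over 80 control cells and 0.63 over 197 mutant cells), the small heat shock gene Hspb1 (0.51 and 0.58), the junction gene Nectin4 (0.46 and 0.65) and Cldn23, a claudin of differentiated epithelium (0.39 and 0.56). Fgfr2, the receptor for fibroblast growth factors in epithelium, ran the other way (−0.31 and −0.35). Trp63 was followed most closely by Fgfr2 (0.58 and 0.51) and by Cdh3, P-cadherin of basal cells (0.51 and 0.50), and the Wnt effector Lef1 also ran with it (0.44 and 0.40), while Nectin4 (−0.46 and −0.54), Cldn7 (−0.44 and −0.43) and Grhl3 (−0.38 and −0.52) ran against it. The cells share a library and depth enters these values: over the same cells, depth itself had a rho of 0.20 and 0.25 with Sfn and −0.32 and −0.28 with Trp63.

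The members were also ranked by Sfn and divided into 3 equal parts, of which the lowest (Sfn-low) and the highest (Sfn-high) held 26 cells each in the control library and 65 each in the mutant library. Krt17, a keratin of periderm and of cells above the basal layer, stood at 61.9 CPM in Sfn-low and 605 CPM in Sfn-high control members, and at 8.42 and 608 CPM in mutant members. Grhl3, a transcription factor of periderm and barrier formation, went from 11.5 to 109 CPM and from 27.1 to 349 CPM. Both genes were therefore higher in the Sfn-high cells of both libraries. The plakins Ppl and Evpl, which build the cornified envelope, rose alongside, Ppl from 9.18 to 96.8 CPM in control members and from 8.42 to 203 CPM in mutant members, Evpl from 4.59 to 44.2 CPM and from 8.42 to 67.9 CPM. Among the genes of the rule, the log2 ratios of Sfn-high over Sfn-low cells were 3.48 and 2.37 for Krt5 and 1.62 and 1.66 for Krt14. Trp63 had log2 ratios of −0.65 (−0.99 to −0.31) in control members and −1.96 (−2.28 to −1.65) in mutant members. The 20 control and 33 mutant members without Sfn are all Sfn-low and had to hold 2 of the other 4 markers. The rule itself therefore bears on Trp63, Krt5 and Krt14 among Sfn-low cells, and nothing is read from these ratios. It can also bear on genes that run with those markers, so all other ratios of Sfn-high over Sfn-low cells are a description. Fgfr2 fell from 489 to 260 CPM in control members and from 484 to 223 CPM in mutant members. The median depth of Sfn-low and Sfn-high cells was 10678 and 19069.5 UMIs in the control library and 13150 and 19412 in the mutant library.

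For Krt8 the ratio in control members rests on 1 cell. Krt8 stood at 199.6 CPM in Sfn-low and 91.7 CPM in Sfn-high control members, a log2 ratio of −1.12 (−1.64 to −0.61). In mutant members Krt8 stood at 238 CPM in Sfn-low and 1608 CPM in Sfn-high cells, a log2 ratio of 2.76 (2.57 to 2.95). A single Sfn-low cell, the deepest control member with 78348 UMIs, held 64 of the 154 Krt8 UMIs of the control members. Without it Krt8 stood at 64.3 CPM in Sfn-low and 91.7 CPM in Sfn-high control members, a log2 ratio of 0.51 (−0.22 to 1.28). In mutant members the cell with the most Krt8 was Sfn-high, and the ratio without it was 2.40 (2.21 to 2.60). Krt18, its partner, went from 151 to 170 CPM in control members (0.17, −0.30 to 0.64) and from 175 to 1260 CPM in mutant members (2.85, 2.63 to 3.07), and without the cell with the most Krt18 in each library the ratios were 0.88 (0.30 to 1.49) and 2.31 (2.09 to 2.54). Krt19 was higher in Sfn-high cells of both libraries, with log2 ratios of 3.72 (2.30 to 5.63) and 3.66 (3.31 to 4.03). Without the cell with the most Krt19 in each library they were 3.12 (1.67 to 5.06) and 3.28 (2.92 to 3.65). Among basal anchorage genes, Col17a1, the hemidesmosomal collagen, stood at 106 CPM in Sfn-low and 104 CPM in Sfn-high control members, and at 58.97 and 20.3 CPM in mutant members.

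**Figure D2:**
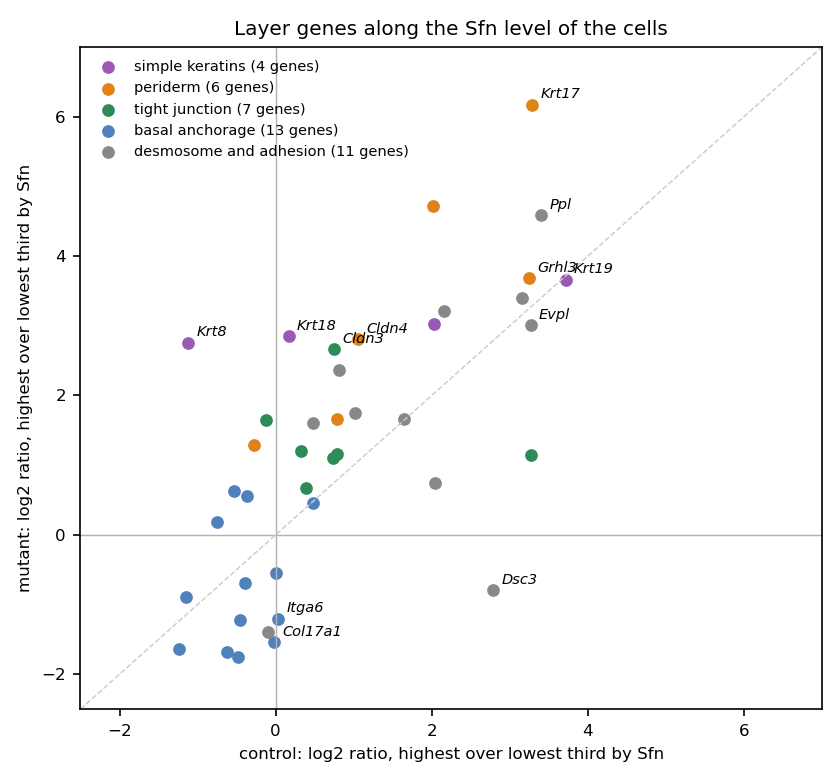
Log2 ratio of Sfn-high over Sfn-low stratifying epithelial cells, in the control library (x axis) against the mutant library (y axis), for 41 layer genes with 20 or more UMIs in each library (1 point a gene, colored by group, each gene drawn once). Krt17 and Grhl3 lie above 3 on both axes, whereas Krt8 lies at −1.12 in the control and 2.76 in the mutant library, and would lie at 0.51 and 2.40 without the cell with the most Krt8 UMIs in each.

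Genes of the mouth and of the pharynx varied between members. The numbers of cells in this paragraph are cells with a UMI before thinning, with no background share set beside them. Pitx1, a homeobox gene of the oral ectoderm, was found in 32 of 80 control members and 75 of 197 mutant members. Tfap2b, an ectodermal transcription factor, was found in 36 and 86. Tfap2b was followed most closely by Cxcl14, a chemokine of skin and oral epithelium (Spearman rho 0.67 and 0.62), and also ran with Tfap2a (0.54 and 0.58), Irx4 (0.50 and 0.51), Wnt6 (0.60 and 0.45) and Wnt3 (0.41 and 0.58), and ran against Pitx1 (−0.51 and −0.54), Pax9 (−0.38 and −0.43) and Foxa1 (−0.35 and −0.47). Pax9, a gene of pharyngeal pouch and tooth, was found in 22 control and 51 mutant members, and Foxa2, a gene of endoderm, in 6 and 13.

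Pax1 and Foxe1, which are active in pharyngeal pouch and in oral and thyroid endoderm, were found in part in the same cells. Pax1 was found in 3 control members and 21 mutant members, and Foxe1 in 13 and 67. Both together were found in 2 control and 13 mutant members. These counts were not thinned or set beside endothelial cells, and whether the overlap exceeds chance was not tested. Isl1, the gene that drives the Cre, was still found in 12 control and 51 mutant members, a thinned share of 2.63% and 13.9% (15% and 25.9% before thinning) against 2.67% and 5.58% of endothelial cells. The thinned share of control members with Isl1 was therefore at the level of endothelial cells.

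The members were next set against the other epithelium, the 256 control and 215 mutant cells that held Epcam, were not members and held fewer than 2 of the 4 exclusion genes. Since the rule split these cells on marker UMIs, the contrast is a description and carries no test. A gene was counted as higher or lower only where its whole counting interval lay beyond 1.5-fold in both libraries, among genes with at least 20 UMIs. Of 12935 genes 341 were higher (2.64%) and 660 were lower (5.10%) in the members of both libraries. With genes of the rule left out, Gabrp, a chloride channel subunit, stood farthest apart, at 86.9 CPM in members and 0.174 CPM (1 UMI) in other epithelium of the control library and at 207 and 0.47 CPM (2 UMIs) in the mutant library. It was found in 4 of 80 control and 44 of 197 mutant members, so most members held none. Krt17 stood at 322 against 2.95 CPM and at 241 against 1.41 CPM, and Trim29, a partner of p63-positive epithelia, at 115 against 2.78 CPM and at 87.9 against 1.88 CPM. Other genes of this top set were Grhl3, the desmosomal genes Perp and Dsp, the Wnt ligands Wnt6 and Wnt3, the Wnt regulators Kremen2 and Sostdc1, Tfap2a, Cxcl14, Fxyd3 and Upk3bl. The log2 ratios of these 11 genes ran from 3.46 to 5.50 in the control library and from 3.34 to 6.61 in the mutant library.

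The genes lowest in the members pointed to what the other epithelium held. Oc90, an inner ear matrix gene, had 0 UMIs in control members against 232 CPM in other epithelium, and 0.787 against 130 CPM in the mutant library. Chga, a gene of endocrine granules, stood at 3.32 against 140 CPM and at 0.262 against 95.2 CPM, and Cga, a pituitary hormone subunit, at 1.99 against 82.1 CPM and at 0.525 against 80.6 CPM. The neuronal genes Stmn3, Nefl, Gng3, Crmp1 and Elavl3, with Insm1 and Kcnmb2, made up the rest of the lowest 10. In the mutant library the other epithelium also held liver markers at a summed 6073 CPM, led by Afp at 2350 CPM, against 11.6 CPM in the control library.

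**Figure D3:**
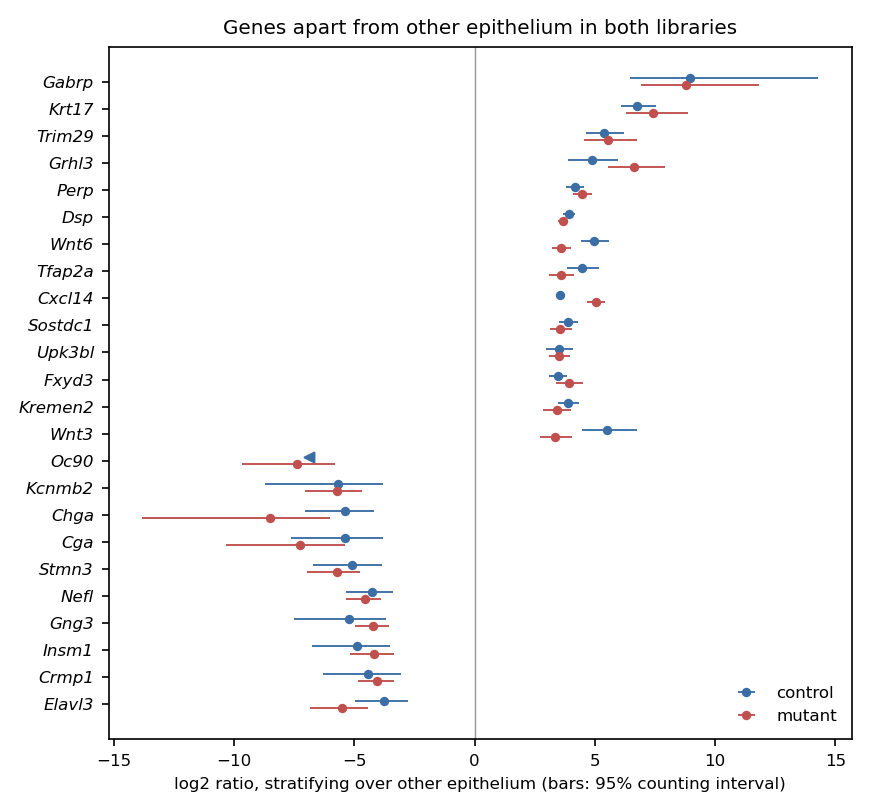
Log2 ratio of stratifying over other epithelium for 14 of the 15 highest and the 10 lowest genes, with 95% counting intervals, in the control (blue) and mutant (red) library. The triangle marks Oc90, which had 0 UMIs in control members and is drawn at the upper limit that 3 UMIs would give. The 14 upper genes lie at 3.34 or above and the 10 lower genes at −3.76 or below in both libraries.

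Gene groups are counted in each library alone, where 579 of 13514 genes were higher (4.28%) and 1111 lower (8.22%) than in other epithelium of the control library, and 728 of 13747 were higher (5.30%) and 1496 lower (10.9%) in the mutant library. Of 14 basal anchorage genes 11 were higher than in other epithelium in the control library and 12 in the mutant library, among them Col17a1 (log2 ratio 4.99 and 5.397) and the integrin subunit Itgb4 (4.11 and 2.52). Of the desmosome and adhesion genes 11 of 12 tested were higher in the control library and 12 of 13 in the mutant library. Of 16 epithelial transcription factors 12 and 14 were higher, and of the Wnt genes 9 of 17 and 12 of 19. For the simple keratins the libraries differed, with 1 of 4 higher in control members and 4 of 4 in mutant members. For the tight junction genes 2 of 12 were higher and 1 lower in control members, while 9 of 12 were higher in mutant members.

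Mutant members were then compared with control members gene by gene. Of 12193 genes with at least 20 UMIs over both sums, 354 were higher (2.90%) and 383 were lower (3.14%) by a counting interval wholly beyond 1.5-fold, and the median log2 ratio of all these genes was −0.05. Between female-like members alone, which share the control cells with the first comparison, 218 of 10917 genes were higher (2.00%) and 422 were lower (3.87%). Male-like mutant members against all control members gave 404 higher (3.59%) and 342 lower (3.04%) of 11253 genes. Within the mutant library, male-like over female-like members gave 213 higher (1.93%) and 58 lower (0.525%) of 11056 genes. In the other epithelium 571 of 14428 genes were higher (3.96%) and 498 were lower (3.45%) in the mutant library.

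All 4 simple keratins, which line single-layered epithelia and the periderm, were higher in mutant members, with a median log2 ratio of 2.54. Krt8 stood at 102 CPM in control members and 814 CPM in mutant members, a log2 ratio of 2.99 (2.76 to 3.24), and was found in 27 of 80 and 145 of 197 cells. Krt18 stood at 126 and 658 CPM (2.38, 2.17 to 2.60), Krt19 at 55.1 and 359 CPM (2.71, 2.39 to 3.04) and Krt7 at 47.8 and 194 CPM (2.02, 1.67 to 2.39). Krt19 also stands among the mesothelial markers, which summed to 90.2 and 476 CPM. The thinned share of members with Krt8 was 19.7% in the control library and 57.8% in the mutant library (33.8% and 73.6% before thinning), against 0.667% and 2.48% of endothelial cells. In female-like members the median was 3.06 and all 4 were again higher. In the other epithelium the median was 0.37 and 1 of 4, Krt18, was higher. Its make-up differed between the libraries, with liver markers at 11.6 and 6073 CPM, and the part of this in its ratios was not tested. Cells with 0 of the 5 markers that met the other conditions of the rule held 614 simple keratin UMIs in 191 control cells. In the mutant library 192 such cells held 2526, with median depths of 17202 and 17002.5 UMIs. Higher simple keratin counts were therefore not limited to the members. Within the mutant library male-like members stood below female-like members, with a median of −0.66 and 2 of 4 lower, but this rests on 1 female-like cell with 1469 simple keratin UMIs. Without that cell the median was −0.14 and 0 of 4 were lower, and the per-cell medians were 6.43 in female-like and 6.40 in male-like cells, in UMIs per 10000. Among mesenchyme-poor members the median was 1.75, and without the member of each library that was highest in simple keratins it was 2.25, with 4 of 4 higher in both cases.

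Of 12 tight junction genes 8 were higher in mutant members and 0 were lower, with a median of 1.34. Cldn4, a claudin that seals the paracellular space, stood at 108 CPM in control and 528 CPM in mutant members (2.29, 2.06 to 2.53). Cldn7 stood at 51.1 and 181 CPM (1.83, 1.49 to 2.19), Cldn23 at 21.9 and 75.8 CPM (1.79, 1.27 to 2.36), Cldn6 at 67.0 and 176 CPM (1.39, 1.09 to 1.71) and Cldn3 at 59.7 and 152 CPM (1.35, 1.03 to 1.69). Ocln, which encodes occludin, Marveld2 and F11r were the other 3 that were higher, while Cldn1 stood at 29.8 and 25.98 CPM (−0.20, −0.72 to 0.34). In the other epithelium, whose make-up differed between the libraries, 1 of 12 was higher, Cldn1, and the median was −0.11. The number higher was 7 in female-like members and 3 of 12, with a median of 0.68, in mesenchyme-poor members.

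The periderm list gave 6 of 8 tested genes higher. Krt6a went from 9.95 to 76.1 CPM (2.94, 2.19 to 3.79) but was found in 2 control and 23 mutant cells. Grhl3 went from 50.4 to 161 CPM (1.68, 1.33 to 2.04) and was found in 18 and 97 cells. Gabrp went from 86.9 to 207 CPM (1.25, 0.98 to 1.53), found in 4 and 44 cells, and Anxa1, a membrane-binding annexin, from 174 to 342 CPM (0.98, 0.79 to 1.17). Cldn4 and Cldn6 are counted here as well. Krt17, on the other hand, stood at 322 and 241 CPM (−0.42, −0.58 to −0.26), with 39.8% of its mutant UMIs in 1 cell. The 3 that were higher in mesenchyme-poor members too were Krt6a, Cldn4 and Cldn6, while Grhl3, Gabrp and Anxa1 had ratios of 0.87, 0.40 and 0.33.

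Genes of later strata are given next. Krt13, the keratin of mature mouth lining, and Ivl, the envelope precursor involucrin, had 0 UMIs in the members of both libraries. Krt1 stood at 15.3 and 11.8 CPM and Krt10 at 31.8 and 33.6 CPM, with Krt10 at 31.2 and 28.0 CPM in the other epithelium. Zfp750 and Ovol1, factors that drive keratinocytes into differentiation, were higher, Zfp750 at 17.2 and 50.4 CPM (1.55, 0.95 to 2.20) and Ovol1 at 7.30 and 44.9 CPM (2.62, 1.75 to 3.65). Lgals7, a galectin of stratified epithelia, was lower, at 155 CPM in control and 9.71 CPM in mutant members (−4.00, −4.54 to −3.49). It was found in 39 of 80 control members and 18 of 197 mutant members, a thinned share of 38.2% and 3.74%. In the other epithelium Lgals7 was also lower (12.3 and 3.53 CPM, −1.80). These 3 genes were the only ones of 8 tested in the suprabasal list to be counted in either direction, and in mesenchyme-poor members Ovol1 and Lgals7 were, but not Zfp750 (0.76).

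Of the 16 epithelial transcription factors 6 were higher, Grhl3, Klf5, Ovol1, Elf3, Zfp750 and Sox21, and 1 was lower, Ovol2, which went from 21.9 to 5.77 CPM (−1.92, −2.77 to −1.10). Klf5, a factor of proliferating epithelium, went from 80.9 to 159 CPM (0.97, 0.69 to 1.27). Tfap2a stood at 88.9 and 105 CPM and Tfap2b at 254 and 188 CPM, and neither was counted. In female-like members 4 of the 16 were higher, without Klf5 and Elf3. Between mesenchyme-poor members 1 of 16, Ovol1, was counted as higher and 0 as lower, with ratios of −1.65 for Ovol2, 1.58 for Sox21, 1.13 for Elf3, 0.87 for Grhl3, 0.76 for Zfp750 and 0.71 for Klf5.

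Basal anchorage genes ran lower in their median, −0.44, but 1 of 14 was counted as lower, Col17a1, at 116 and 39.6 CPM (−1.55, −1.87 to −1.23). Itgb4, the integrin of hemidesmosomes, stood at 74.95 and 39.1 CPM (−0.94, −1.30 to −0.57) and Itga6, its partner, at 135 and 104 CPM (−0.38, −0.62 to −0.13). In female-like members 4 of 14 were lower, Col17a1 (−2.03), Itgb4 (−1.58), Dst (−1.04) and Lama3 (−1.64). Of the 13 desmosome and adhesion genes Dsc2 (15.9 and 65.6 CPM, 2.04) and Pkp2 (11.9 and 46.7 CPM, 1.97) were higher and Dsc3 (63.0 and 18.6 CPM, −1.76) was lower. In mesenchyme-poor members 0 genes of this list were lower, with Dsc3 at −1.09, and its median was 0.05 instead of 0.61. Dsp, the plakin that ties desmosomes to keratin, stood at 395 and 541 CPM (0.45, 0.32 to 0.59).

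Regional genes moved in both directions. Of 17 tested oral and dental genes 3 were lower, Lef1 (125 and 45.4 CPM, −1.46), Edar, the ectodysplasin receptor (30.5 and 5.77 CPM, −2.40), and Irx1 (82.2 and 21.5 CPM, −1.93). The mesenchyme-poor members gave 1 gene of this list lower, Edar, with ratios of −0.90 for Lef1 and −0.53 for Irx1, and the median was 0.25 instead of −0.24. Pitx1 stood at 116 and 119 CPM (0.03, −0.22 to 0.29). Fgf8, a signal of the early oral ectoderm, had 0 UMIs in control members and 35 UMIs in 7 mutant cells, which puts its log2 ratio at 2.21 or more against a floor of 3 UMIs over the control sum. Of 12 tested pharyngeal endoderm genes 3 were higher and 0 were lower. Over 15 alternatives of the processing the number higher ran from 0 to 4. Pax1 went from 3.98 to 53.0 CPM (3.74, 2.59 to 5.199), with 56.9% of its mutant UMIs in 4 cells. Foxe1 went from 31.2 to 92.4 CPM (1.57, 1.13 to 2.04) and Isl1 from 14.6 to 37.0 CPM (1.34, 0.69 to 2.06). Pax1 stood at 94.0 CPM in female-like and 26.9 CPM in male-like mutant members. In the mesenchyme-poor members 1 gene of this list was higher, Pax1, with a log2 ratio of 2.86, and the ratios of Foxe1 and Isl1 were 0.76 and 1.11. Of 8 tested genes of other glands and gut, Ccl25, a thymic chemokine, was higher (22.6 and 61.7 CPM, 1.45), and Sox10 (21.9 and 0.525 CPM, −5.38, −8.49 to −3.42) and Etv5 (38.5 and 11.02 CPM, −1.80) were lower. Sox10 was found in 5 control members and 1 mutant member and stands among the neural crest markers too.

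Signaling genes are given by pathway. Of 19 Wnt genes 5 were lower and 0 were higher, Wnt3a (17.2 and 5.51 CPM, −1.65), the receptor Fzd10 (67.0 and 27.3 CPM, −1.30), and the effector or feedback genes Lef1, Nkd1 (21.9 and 8.40 CPM, −1.38) and Sp5 (18.6 and 3.41 CPM, −2.44). The ligands Wnt4 (135 and 177 CPM), Wnt6 (164 and 174 CPM) and Wnt3 (63.0 and 52.5 CPM) were not counted in either direction. Among the mesenchyme-poor members 0 Wnt genes were counted as lower, with ratios of −0.998 for Fzd10, −0.90 for Lef1 and −0.31 for Nkd1, while Wnt3a and Sp5 had too few UMIs to be counted. The median of the list was then 0.14. Of 20 hedgehog, BMP and FGF genes Fgfr1 (72.3 and 25.5 CPM, −1.51) and Dusp6, a feedback phosphatase of FGF signaling (57.04 and 17.6 CPM, −1.70), were lower and Fgf8 was higher, while Fgfr2 stood at 407 and 365 CPM. Of 11 Notch genes Lfng was lower (29.8 and 11.3 CPM, −1.40) and Notch1 stood at 64.3 and 90.8 CPM. Lfng had a ratio of −1.03 in mesenchyme-poor members and was not counted. Of 20 secreted signals 4 were higher, Vegfa, Adm, Areg and Tgfb2, and 2 were lower, Angptl4 and Cxcl14, the latter at 1017 and 483 CPM (−1.08, −1.17 to −0.98). Adm, the peptide adrenomedullin, went from 1.33 to 28.3 CPM (4.42, 2.53 to 7.48) and was found in 2 control and 38 mutant members. Of the secreted signals 3 were higher in mesenchyme-poor members, Vegfa, Adm and Tgfb2, and 0 were lower, with ratios of 2.50 for Areg and −0.54 for Cxcl14.

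The list with the largest number of higher genes, though not the largest share or median, held targets of the hypoxia-inducible factors (HIF), transcription factors that are stable when oxygen is low and that switch on glucose uptake, glycolysis and blood vessel signals. Of 37 tested HIF target genes 24 were higher and 2 were lower, with a median log2 ratio of 1.30 beside −0.05 for all genes. Ndrg1, a stress-induced gene, stood at 9.95 CPM in control and 269 CPM in mutant members (4.76, 4.03 to 5.6). Bnip3, a mitophagy receptor, stood at 43.1 and 376 CPM (3.12, 2.77 to 3.51), the glucose transporter genes Slc2a1 at 157 and 851 CPM (2.44, 2.25 to 2.64) and Slc2a3 at 91.5 and 626 CPM (2.77, 2.53 to 3.03). Vegfa, the endothelial growth factor, stood at 34.5 and 190 CPM (2.46, 2.05 to 2.89), the mTORC1 brake Ddit4 at 121 and 830 CPM (2.77, 2.56 to 2.997) and the lactate exporter Slc16a3 at 25.9 and 195 CPM (2.91, 2.45 to 3.42). The 2 lower genes were Car12, a carbonic anhydrase (80.9 and 29.7 CPM, −1.45, −1.83 to −1.07), and Angptl4 (10.6 and 2.36 CPM, −2.17, −3.53 to −0.90). Car12 was not lower in the other epithelium, where it stood at 7.63 and 14.6 CPM.

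HIF binds the core letters ACGTG, and stretches of 100 bases from upstream of 4 of these genes are shown because they hold it. They are from RefSeq promoters of GRCm38.p6, 5′ to 3′ on the gene's strand, with the motif on either strand in capitals, and overlapping matches on both strands run together as 1 stretch.
Bnip3 (chr7:138909562-138909661, minus strand): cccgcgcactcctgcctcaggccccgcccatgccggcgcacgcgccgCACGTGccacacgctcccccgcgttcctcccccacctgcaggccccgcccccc
Slc2a1 (chr4:119108645-119108744, plus strand): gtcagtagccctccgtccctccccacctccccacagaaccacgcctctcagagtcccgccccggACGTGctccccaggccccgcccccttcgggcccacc
Ddit4 (chr10:59951906-59952005, minus strand): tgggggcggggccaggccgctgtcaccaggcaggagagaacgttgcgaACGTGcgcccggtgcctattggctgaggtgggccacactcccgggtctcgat
Slc16a3 (chr11:120948967-120949066, plus strand): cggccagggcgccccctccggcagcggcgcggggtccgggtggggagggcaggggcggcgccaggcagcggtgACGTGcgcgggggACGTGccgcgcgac

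The last match lies 10 bases before the annotated start in Slc16a3, 32 in Slc2a1, 103 in Bnip3 and 183 in Ddit4. The letters ACGTG or CACGT were found in 23 of 37 promoters of 29 matched HIF target genes (62.2%), in 16 of 33 promoters of 21 glycolysis genes (48.5%), and in 6447 of 32851 promoters of all genes (19.6%). A match in these windows is a description of the letters and no sign of binding.

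The HIF target genes differed between male-like and female-like mutant cells, which come from different embryos, so sex and embryo cannot be told apart. In female-like members 15 of 33 tested genes were higher and 1 was lower, with a median of 0.85. Male-like over female-like mutant members gave 19 of 35 higher, 0 lower and a median of 0.96. Ndrg1 stood at 8.89 CPM in female-like control members, 51.9 CPM in female-like mutant members and 481 CPM in male-like mutant members. With mesenchyme-poor members alone 22 genes were higher, 1 was lower and the median was 1.64, and Bnip3 had a ratio of 3.93. In the other epithelium 27 of 38 were higher, with a median of 1.24, and Ndrg1 went from 18.9 to 107 CPM. In endothelial cells Ndrg1 stood at 39.6 and 165 CPM, so higher levels in the mutant library were not limited to the members.

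Cell by cell, the summed HIF target level had a median of 19.3 UMIs per 10000 UMIs of the cell in control members (range 4.97 to 50.9) and 51.9 in mutant members (11.7 to 443). Of the 197 mutant members 99 lay above the highest control cell, among them 23 of 77 female-like and 71 of 100 male-like cells. The groups overlapped in the lower range of the mutant cells. For the simple keratins the medians were 0.776 and 6.43 UMIs per 10000, and 14 of 197 mutant members lay above the highest control cell at 40.6.

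**Figure D4:**
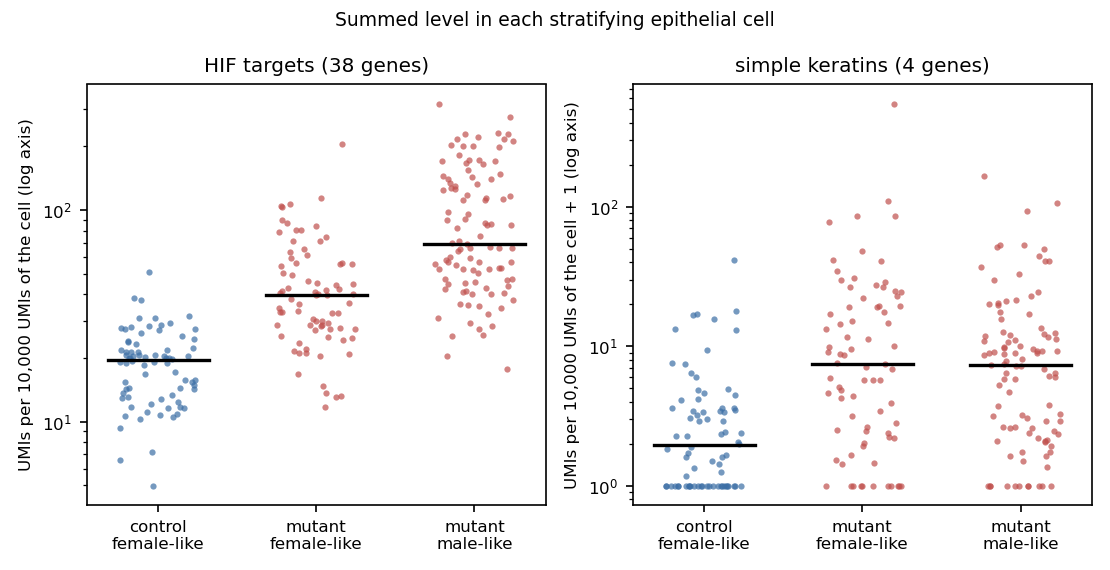
Summed UMIs per 10000 UMIs of each stratifying epithelial cell (log axes) for HIF target genes (left) and, plus 1, for simple keratins (right) in female-like control, female-like mutant and male-like mutant cells, 1 point a cell with the median as a bar. The HIF medians are 19.6, 39.5 and 69.3, and the simple keratin medians without the added 1 are 0.956, 6.43 and 6.40.

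Glycolysis genes ran with the HIF targets, with 15 of 21 higher, 0 lower and a median of 1.13. Aldoa stood at 466 and 1809 CPM (1.96, 1.84 to 2.07), Pgk1 at 312 and 1062 CPM (1.77, 1.63 to 1.91), Ldha at 696 and 1986 CPM (1.51, 1.42 to 1.61) and Hk2 at 26.5 and 108 CPM (2.03, 1.56 to 2.53). Pfkfb3, which makes an activator of phosphofructokinase, went from 9.95 to 66.4 CPM (2.74, 1.99 to 3.60). Ldhb (151 and 183 CPM) and Pfkm (31.2 and 16.0 CPM) were not counted in either direction. In female-like members 13 of 20 were higher, with a median of 1.05, and in the other epithelium 15 of 21, with a median of 0.93. The number was 14 in mesenchyme-poor members. None of the 20 respiratory chain genes was counted, and their median was −0.08.

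Of 14 heat shock genes 7 were higher. Hspb1 stood at 261 and 1115 CPM (2.10, 1.95 to 2.25) and, as above, followed Sfn within both libraries. Hspa1a stood at 41.8 and 561 CPM (3.75, 3.38 to 4.13) and Hspa1b at 39.1 and 489 CPM (3.64, 3.27 to 4.04), but these near-identical copies can share reads, so the split between them is uncertain. In the other epithelium Hspa1a went from 28.8 to 377 CPM and in endothelial cells from 20.2 to 519 CPM. Hspa1a and Hspa1b also stood higher in male-like than in female-like mutant members (1.77 and 1.89). Of 17 stress-response genes of the ATF4 and unfolded protein pathways 4 were higher, Ddit3 (17.2 and 46.2 CPM), Trib3 (0.663 and 8.92 CPM), Sesn2 (8.62 and 30.2 CPM) and Chac1 (0 and 18.1 CPM, in 0 and 10 cells). In mesenchyme-poor members Trib3 and Chac1 were counted as higher, with ratios of 1.51 for Sesn2 and 1.23 for Ddit3, and 6 heat shock genes were higher.

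No gene of the 24 in the PI3K and FOXO list was counted, and their median was 0.00. Of 16 sterol genes Hmgcs1 (166 and 288 CPM) and Insig1 (17.9 and 45.1 CPM) were higher, against 8 of 16 in the other epithelium. Of 16 immediate early genes Fosl2 was higher (12.6 and 34.1 CPM). Of 21 cell cycle genes 2 were lower, Ccnb1 (123 and 55.1 CPM, −1.16, −1.45 to −0.87) and Cenpf (229 and 127 CPM, −0.86, −1.06 to −0.65). The thinned share of members with a UMI of Mki67 or Top2a was 53.9% in the control library (42.1 to 65.5) and 40.6% in the mutant library (33.5 to 48.1), and the intervals overlapped (65% and 56.9% before thinning). Of 7 tested genes that hold the cycle back 3 were higher, Cdkn1a (39.8 and 99.2 CPM, 1.32), Cdkn2b (1.99 and 18.6 CPM, 3.23, 1.62 to 5.54) and Cdkn2a (0 and 5.77 CPM, found in 0 and 11 cells). For mesenchyme-poor members Insig1 was higher and Hmgcs1 (0.67) was not counted, Junb and Ier3 were higher and Fosl2, with the same ratio of 1.44 as in all members, was not counted, Ccnd1 was lower beside Ccnb1 and Cenpf, and Cdkn1a, Cdkn2b and Gadd45g were the genes of the last list that were higher.

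**Figure D5:**
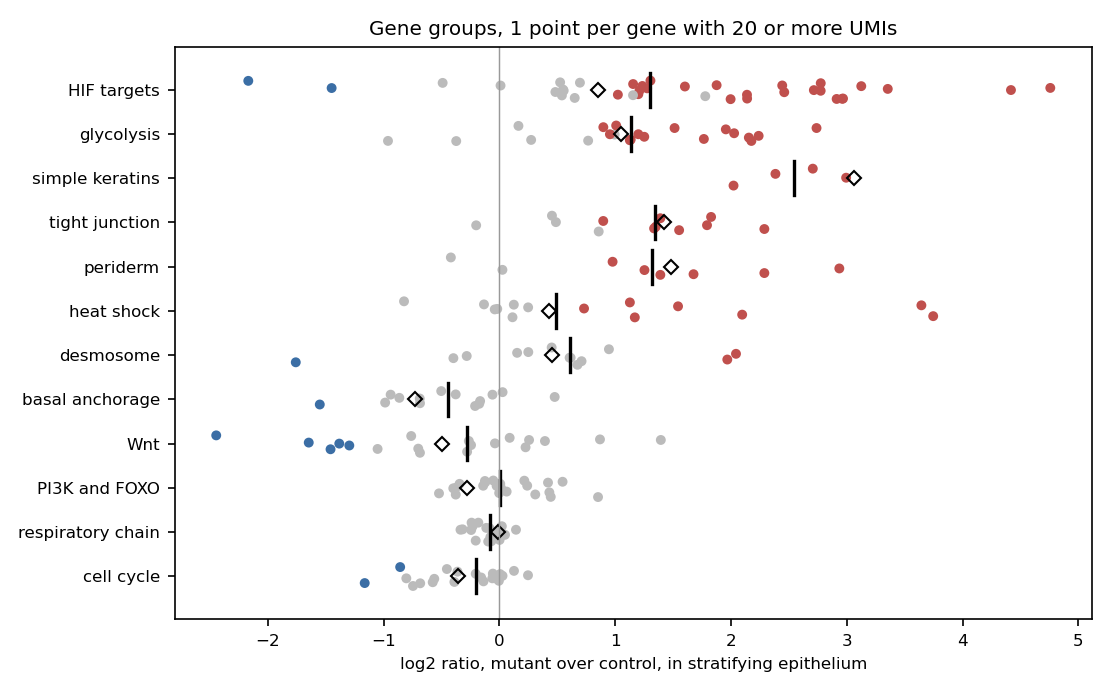
Log2 ratio of mutant over control stratifying epithelial cells for each tested gene of 12 groups (1 point a gene), red where the counting interval lies above 1.5-fold, blue where it lies below and gray otherwise. The black bar is the group's median and the open diamond its median in female-like cells. HIF targets (median 1.30), glycolysis (1.13), simple keratins (2.54), tight junction (1.34) and periderm genes (1.32) lie to the right, while PI3K and FOXO genes and the respiratory chain lie at 0.00 and −0.08.

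Ranked over all genes with at least 50 CPM in either library, the largest rise was in Ndufa4l2, a mitochondrial protein gene that HIF induces, at 4.64 and 198 CPM (5.41, 4.36 to 6.73). It was found in 5 of 80 control and 102 of 197 mutant members and stood at 18.2 and 27.7 CPM in the other epithelium, where it was not counted. The other rises among the first 12 were Ndrg1, Tafa2, Tagln, Hspa1a, Pax1, Hspa1b, Aldh1a3, Loxl2, Bnip3, Upk1b and the Y-linked gene Uty, which had 0 UMIs in control members. Tagln, a smooth muscle actin-binding gene, went from 26.5 to 571 CPM (4.43, 3.98 to 4.92) but was found in 16 of 80 and 53 of 197 cells, with 54.7% of its mutant UMIs in 4 cells. Of 8 tested cardiomyocyte markers 7 were also higher in mesenchyme-poor mutant members, and their part in the Tagln value was not tested. Within both libraries it ran with the contractile genes Cnn2 (rho 0.43 and 0.44), Tpm2 (0.35 and 0.40) and Myl9 (0.25 and 0.45). Aldh1a3, which makes retinoic acid, went from 9.29 to 105 CPM (3.495), with 70.7% of its mutant UMIs in 4 cells. Upk1b, a uroplakin of superficial epithelial cells that also stands among the mesothelial markers, went from 12.6 to 102 CPM (3.02). It was found in 9 and 44 cells. The log2 ratio in mesenchyme-poor members was 1.99 for Upk1b, 4.67 for Ndufa4l2 and 4.27 for Loxl2. Loxl2, a lysyl oxidase, went from 7.96 to 81.4 CPM (3.35) and was spread over 117 of 197 mutant members.

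The largest falls included Lgals7, Txnip and several mesenchyme and muscle genes. Col3a1 went from 296 to 16.0 CPM (−4.21, −4.62 to −3.82), with 91.9% of its control UMIs in 4 cells. The mesenchyme genes Col1a2, Col14a1, Dcn and Postn were lower too, as was Igf1, with 95.3% of its control UMIs in 4 cells. Col1a1 was also among the falls, with 93.9% of its control UMIs in 4 cells. It is an exclusion gene of the rule, so nothing is read from its ratio. The muscle genes Ttn (−2.97) and Neb (−2.94) had 88.1% and 85.4% of their control UMIs in 1 cell. In mesenchyme-poor members the ratio was −0.88 for Dcn and −1.74 for Col3a1. Both genes are markers by which these cells were chosen, so their smaller ratios follow from that choice. The ratio of Ttn in these cells was −0.03, that of Igf1 −0.66 and that of Neb −1.77. Others kept their size in these cells, with −4.32 for Col14a1 (−3.89 in all members, found in 25 control cells), −2.66 for Thsd4, −3.16 for Txnip and −4.18 for Lgals7. Txnip, a brake on glucose uptake that was found in 46 of 80 control and 22 of 197 mutant members, went from 84.2 to 10.8 CPM (−2.97, −3.51 to −2.45) and was spread over many control cells, the highest holding 6.3% of its UMIs. Thsd4 went from 55.7 to 7.61 CPM (−2.87), with 52.4% of its control UMIs in 4 cells.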

How the data were processed

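Single cells of 1 control and 1 mutant pool of 3 embryos each were profiled with a 10x 5′ kit. The deposited values are UMI counts per gene and cell, made by the authors with Cell Ranger 7.1.0 on mm10 and not normalised, for 32285 genes. Here cells with 2001 to 8999 genes and under 10% mitochondrial UMIs were kept, and 0 columns of per-sample values were left unused. UMIs were summed per library over each group of cells (pandas 2.3.3 and scipy 1.17.1 under Python 3.11.15, with numpy 2.4.6), scaled to 1000000, and compared as log2 ratios with exact binomial intervals of 95%. A gene was counted as higher or lower where the interval lay beyond 1.5-fold, among genes with 20 UMIs or more. Shares have Clopper-Pearson intervals. The ratio, its interval and the calls were tested on simulated sums, and thinning was tested for its totals. The simulated sums did not gather in a few cells, as those of some genes do here, and the other steps were not simulated.

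The members, the gene lists and the rule for named genes were chosen with earlier results of these data known. The rule names the 12 largest rises and 12 largest falls among counted genes with at least 50 CPM in a library, the 15 highest and 10 lowest genes against other epithelium by the smaller of the 2 libraries' ratios, and up to 5 genes that moved in opposite directions in members and other epithelium. The lists are counted in full, and a few of the genes so chosen are not reported here by name. Mitochondrial, depth, marker and doublet limits (scanpy 1.11.5 scores), thinning, scaling (edgeR 4.0.16 TMM in R 4.3.3), means over cells, sex and UMI minimums were varied. Doublets were not removed in the values reported. Genome positions are from GENCODE vM21 on GRCm38.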

Additional observations from a re-analysis of the deposited data

Results flagged for a closer look

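Between the libraries 17 genes moved beyond 1.5-fold in opposite directions in stratifying and in other epithelium. Beside them, 354 genes were higher (2.90%) and 383 lower (3.14%) of 12193 in stratifying cells. In other epithelium 571 were higher (3.96%) and 498 lower (3.45%) of 14428. The 5 farthest apart are given with control and mutant UMIs, several of them few, although the difference itself was not tested. Cd36, a fatty acid carrier, had a log2 ratio of mutant over control of 3.26 in stratifying cells (4 and 97 UMIs) and −2.83 in other epithelium (29 and 3 UMIs). Cd74, a chaperone of antigen presentation, had −2.69 (28 and 11 UMIs) and 2.44 (7 and 28 UMIs). Upk3a, a uroplakin, had bounds of 2.21 and −3.37, because 1 library was at 0 in each. Of its 35 UMIs in mutant members 82.9% came from 4 cells, and 30 lay in female-like and 3 in male-like members. The RNA gene 4930426D05Rik had a bound of 1.88 in stratifying cells (0 and 28 UMIs, 53.6% of them in 4 cells) and −2.27 in other epithelium (59 and 9 UMIs). Kcnh1, a potassium channel gene, had −3.82 (39 and 7 UMIs) and 1.87 (10 and 27 UMIs). In control members 43.6% of the Kcnh1 UMIs came from 1 cell. Of the Cd74 UMIs of control members 89.3% came from 4 cells. Without the members that held at least 5 mesenchyme UMIs the ratio in stratifying cells was −0.24 for Cd74, and the bound was 1.34 for Upk3a and 0.76 for 4930426D05Rik.

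Cells left out for having 2000 genes or fewer also held some that met the marker rule. These were 11 of 1657 such control cells, or 0.664% (Clopper-Pearson interval 0.332 to 1.18), and 19 of 1826 mutant cells, or 1.04% (0.628 to 1.62), against limits of 0.181% and 0.164% that a count of 0 would allow.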

How the results depend on the processing

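A value counts as moved where it left the counting interval of the reported value, or 1.5 times a reported count, and as reversed where a ratio counted as higher or lower, or a median whose interval leaves out 0, changed sign. Of the main results 97 values under the alternatives lay near those reported and 21 moved, and none reversed. Shares and counts of genes cannot reverse by this definition, so among the main results only the HIF target and glycolysis medians could. Of the values of lists and single genes 930 lay near those reported, 188 moved and 1 reversed. Of 58 log2 ratios and medians 7 changed sign under an alternative. Besides Krt8 these were the Wnt median, −0.28 as reported and −0.49 to 0.14 over the alternatives, the oral and dental median (−0.24, −0.40 to 0.25), Krt5 (0.18, down to −0.03), Krt15 (−0.07, up to 0.28), and the medians of the PI3K and FOXO and of the respiratory chain list. The one that reversed was the Krt8 ratio of Sfn-high over Sfn-low control members, which went from −1.12 to 0.51 without the 1 cell with the most Krt8. The cause was not tested beyond what each alternative changes by construction. With none of the 4 exclusion genes allowed, the members' share was 2.19% in the control and 4.59% in the mutant library, and with at least 3 of 5 markers the mutant share was 4.53%. With a lower gene minimum and no upper limit on genes per cell, 744 genes were lower in mutant members and 411 were lower than in other epithelium. With cells thinned to 5000 UMIs, the shares were 2.20% and 4.61%, 133 genes were higher and 174 lower in mutant members, 131 were higher and 169 lower than in other epithelium, and the HIF target median was 2.12. With at least 100 UMIs, which leaves fewer genes to test, 224 were higher and 171 lower, and 214 and 370 against other epithelium. With other epithelium limited to cells with 2 Epcam UMIs, 439 genes were lower than in it. In female-like members 218 genes were higher, and 15 HIF targets were higher with a median of 0.85. With means over cells the glycolysis median was 1.43. All 4 simple keratins were higher under each of the 15 alternatives that recompute them, with medians from 1.75 to 3.06. The leaving out of cells with 5 or more mesenchyme UMIs and of the cells highest in simple keratins, in the ratio of male-like to female-like members too, was chosen after seeing the data. The TMM factor shifted all ratios by 0.08. It gave 412 genes higher and 335 lower in mutant members, against 354 and 383 as reported, so the larger side changed. Scaling by the median ratio gave 412 and 338. No paired analysis was possible because each genotype has 1 library, and for the same reason no replicate could be left out.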
